A study of Mus musculus with 4 samples.

Results

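Visceral endoderm, the absorptive outer layer of the early mouse embryo and yolk sac, is known by the proteins it secretes and by the receptors with which it takes up protein from its surroundings. Named genes of these 2 kinds, 10 in all, were followed here: the secreted proteins Afp, Ttr, Apoa1, Apoe, Apob, Rbp4 and Spink1, and the uptake receptor components Amn, Cubn and Lrp2. They are taken by name, with earlier results of these data known, and the rule applies no threshold to a measured value. All probes outside the controls whose RefSeq transcript accession maps to one of the 10 genes were read, which gave 12 probes (2 each for Cubn and Apob, 1 for each other gene) among 55681 different probes, and 10 genes among 20257 RefSeq-named genes.

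Gene expression was measured in 4 lines of mouse embryonic stem (ES) cells with 1 array per line, on the Agilent SurePrint G3 Mouse GE 8×60K design with a single dye. All lines share a background, the feeder-independent EB3 ES cells kept with LIF on gelatin. Parental ES cells received none of the transgenes. Nup98-HoxA9 ES clone #1 and clone #9 carry a FLAG-tagged fusion of the N-terminal part of the nucleoporin NUP98 to the C-terminal part of HOXA9, which holds the DNA-binding homeodomain, and HoxA9-Ct ES carries the HOXA9 C-terminal part without the nucleoporin. The transgenes were put in with a Tol2 transposon and hygromycin B selection, and each transgenic line is 1 picked clone. The labels do not say that the parental cells went through the same selection, so that integration site, clonal isolation and selection cannot be told apart from the transgene in any comparison with parental ES cells. The comparisons answer whether these genes differ in level when the fusion is present, against cells with no transgene and against cells with the HOXA9 part alone.

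In the embryo, the primitive endoderm is set apart from the epiblast by GATA and SOX17 factors, and its visceral derivative makes many of the plasma proteins that the liver makes later, under factors such as HNF4A. Cubilin, a large peripheral receptor without a membrane anchor, needs amnionless (Amn) to reach the apical membrane, and the pair works with megalin (Lrp2) to internalise vitamin-binding proteins, albumin, transferrin and lipoproteins. ES cells that leave the undifferentiated state can take up this fate, while apolipoprotein E is also made by undifferentiated cells.

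The receptor pair Amn and Cubn had the same order over the lines, for Cubn at its brighter probe only. Afp, the classical secreted marker, was not above background in any line. The sequences upstream of these 3 genes are shown because they carry this contrast, described below. Each is the 250 bases before the annotated start of transcription in the RefSeq table for GRCm38.p6, read 5′ to 3′ on the strand of the gene, with matches to the searched motifs in capitals. Amn lies on the plus strand at chr12:111270846-111271095, Cubn on the minus strand at chr2:13491877-13492126 and Afp on the plus strand at chr5:90490464-90490713.
Amn: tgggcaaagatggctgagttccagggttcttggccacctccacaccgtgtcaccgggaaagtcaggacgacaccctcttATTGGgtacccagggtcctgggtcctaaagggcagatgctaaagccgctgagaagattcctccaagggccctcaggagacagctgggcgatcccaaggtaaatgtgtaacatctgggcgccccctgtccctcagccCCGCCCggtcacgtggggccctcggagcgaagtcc
Cubn: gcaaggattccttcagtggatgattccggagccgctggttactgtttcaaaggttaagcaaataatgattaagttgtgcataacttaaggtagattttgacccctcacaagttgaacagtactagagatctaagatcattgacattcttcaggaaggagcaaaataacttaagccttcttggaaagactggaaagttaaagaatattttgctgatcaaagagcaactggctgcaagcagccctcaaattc
Afp: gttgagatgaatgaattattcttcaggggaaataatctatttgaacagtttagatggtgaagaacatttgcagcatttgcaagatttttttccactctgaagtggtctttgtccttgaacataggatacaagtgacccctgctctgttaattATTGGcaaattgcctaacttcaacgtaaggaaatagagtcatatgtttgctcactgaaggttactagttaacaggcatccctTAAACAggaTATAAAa

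Both strands were searched. The motif bound by GATA factors was spelled AGATAA, the box bound by TBP was spelled TATAAA and the NF-Y box was spelled CCAAT. The box bound by SP1, called GC box here, was spelled GGGCGG, the FOXA core was spelled TGTTTA and the joint site of a posterior Hox protein with Pbx was spelled TGATTTAT. The Amn window, with a GC content of 61.2% and 11 CpG dinucleotides, held an NF-Y box that began 171 bases before the start and a GC box 35 bases before it, both on the opposite strand. The Cubn window was poorer in G and C (39.6%, 2 CpG) and held none of these letters. The Afp window had a GC content of 36% and 1 CpG, with a TBP box at 7 bases, a FOXA core at 16 and an NF-Y box at 98 bases before the start. Over all 32851 windows of this length in the table the median GC content was 52.4%, and 33.8% of windows held the NF-Y box, 32.7% the GC box, 12.4% the TBP box, 12.0% the FOXA core, 9.99% the GATA letters and 0.837% the Hox with Pbx letters. Windows were listed for 8 of the 10 genes, and none of those 8 held the GATA or the Hox with Pbx letters. A match is only a run of letters, and neither a match nor its absence speaks of a bound factor.

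Signals are given as the log2 of the processed signal (background-subtracted and spatially detrended intensity) relative to the 75th percentile of the array, so that 0 is a spot brighter than 75% of spots. A probe counts as well above background when the Feature Extraction software calls most of its spots so. By this measure 6 of the 10 genes were detected in all 4 lines (Apoe, Rbp4, Spink1, Amn, Cubn and Lrp2) and 4 in none (Afp, Ttr, Apoa1 and Apob). Of all RefSeq-named genes, 12553 (62.0%) were detected on all arrays and 6150 (30.4%) on none. Since RNA came from whole cultures, fewer cells of a type and less RNA per cell cannot be told apart.

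**Figure D1:**
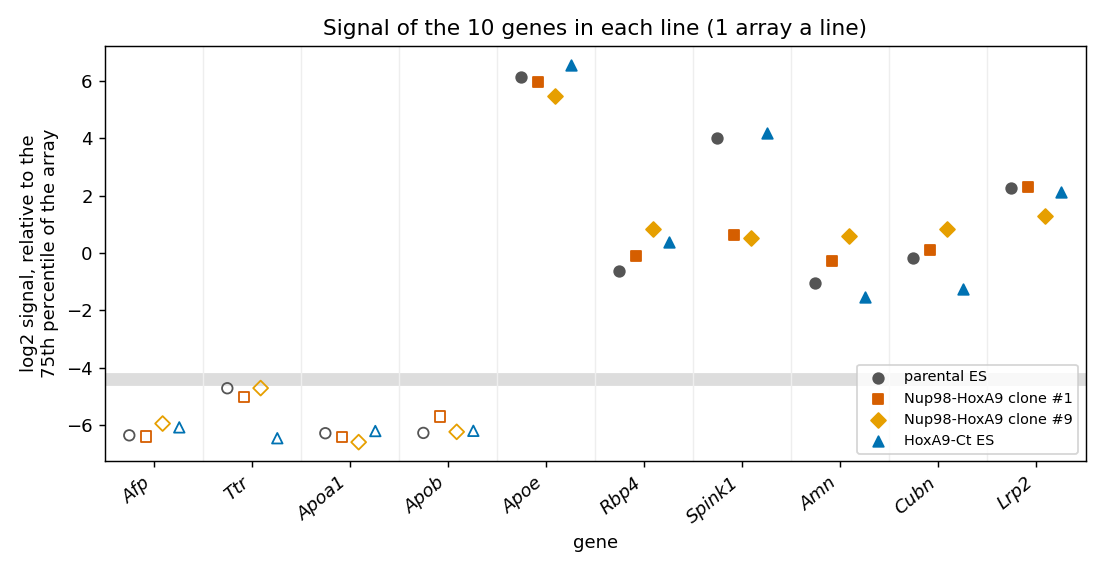
Log2 signal relative to the 75th percentile of the array (y axis) for the 10 genes (x axis), with 1 marker for each line. Filled markers are well above background, open markers are not, and the grey band spans the lowest signals called well above background on the 4 arrays (-4.62 to -4.23). Afp, Ttr, Apoa1 and Apob lie below the band in every line, and Spink1 shows the widest spread over the lines. Heights of different genes are not comparable.

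Of the secreted markers, Afp, Ttr, Apoa1 and Apob were not detected in any line. The probe for Afp, which encodes alpha-fetoprotein, the main serum protein of the fetus, gave -6.36 for parental ES, -6.39 and -5.95 for clones #1 and #9, and -6.08 for HoxA9-Ct ES. The lowest signals called well above background were -4.28, -4.43, -4.62 and -4.23 in the same order, so that Afp stayed below the limit in each line. This probe is printed at 10 spots per array, and the only spot called well above background, in clone #9, was one that the software marks as an outlier and that was left out. Its spots scattered by an SD of 0.12 (n = 8) for parental ES, 0.28 (n = 9) and 0.64 (n = 9) for clones #1 and #9, and 0.54 (n = 10) for HoxA9-Ct ES. These are technical SDs within an array.

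Apoa1, the main protein of high-density lipoprotein, also has 10 spots, none of which was well above background on any array. It gave -6.28 ± 0.18 (spot SD, n = 10) for parental ES, -6.41 ± 0.23 (n = 8) and -6.59 ± 0.17 (n = 10) for clones #1 and #9, and -6.21 ± 0.17 (n = 9) for HoxA9-Ct ES. Apob, the structural protein of chylomicrons and very-low-density lipoprotein, gave -6.27, -5.71, -6.23 and -6.20 in the same order, and its other probe -6.11, -6.33, -6.53 and -6.08. Both of its probes stayed below the limit in all lines.

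Ttr, or transthyretin, carries thyroxine and the complex of retinol with Rbp4, and its probe came nearest to the limit of the 4 undetected genes. It gave -4.72 for parental ES, -5.02 and -4.71 for clones #1 and #9, and -6.46 for HoxA9-Ct ES, and no line reached the limit. Its difference between HoxA9-Ct ES and parental ES was -1.74, with an unadjusted p of 0.00667 and an adjusted p of 0.518 by limma, and no fold is given because no line was above background. At this signal a difference in any of these 4 genes was not detectable, which does not show that they are absent.

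**Figure D2:**
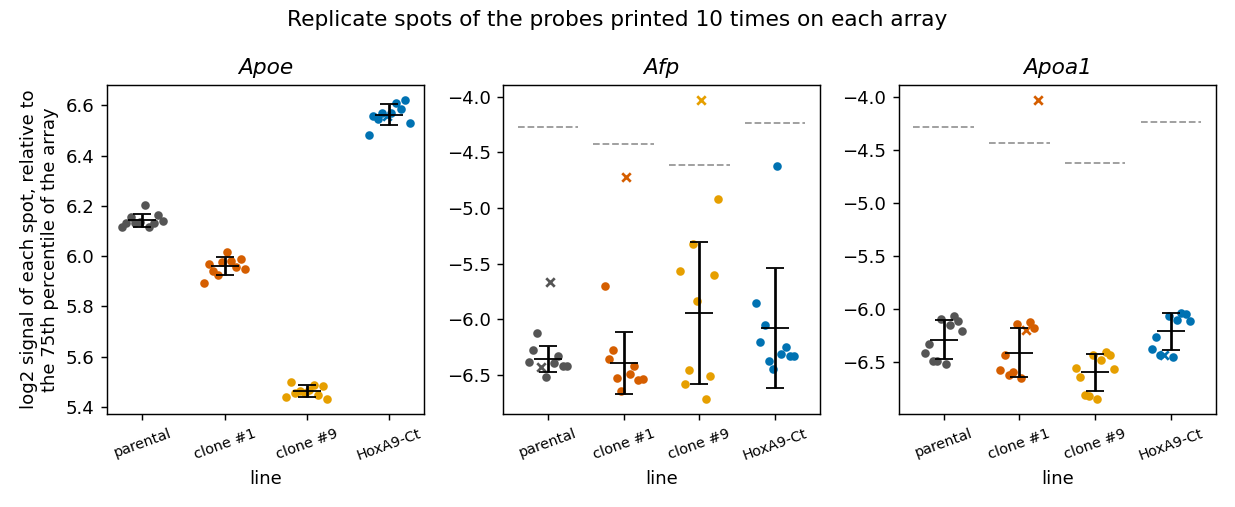
Log2 signal of each spot relative to the 75th percentile of the array (y axis, different range in each panel) by line for Apoe, Afp and Apoa1, the genes whose probes are printed 10 times on each array. Points are spots, crosses are spots marked as outliers, and black bars give the mean ± SD over the other spots. Dashed lines in the Afp and Apoa1 panels mark the detection limit of that array. The Apoe spots of the 4 lines do not overlap, while those of Afp and Apoa1 do.

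Spink1 was lower in both Nup98-HoxA9 clones than in either other line. Spink1 encodes a secreted trypsin inhibitor of the Kazal type. Its signal was 3.99 for parental ES, 0.62 and 0.52 for clones #1 and #9, and 4.20 for HoxA9-Ct ES, which in processed intensity is 3654, 341, 363 and 3830. The clones, whose SD was 0.07 (n = 2), lay well below the other lines with no overlap.

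Relative to parental ES the log2 ratio of Spink1 was -3.38 in clone #1 and -3.47 in clone #9. Their mean was -3.43 ± 0.56 (SE; 95% interval -4.52 to -2.34), a level 10.7-fold lower, with an adjusted p of 3.43e-07 by limma. Against HoxA9-Ct ES the ratio was -3.63 (interval -4.72 to -2.54), or 12.3-fold lower, with an adjusted p of 5.04e-08. HoxA9-Ct ES itself differed from parental ES by 0.20 (interval -1.06 to 1.46, adjusted p = 1.00). Among the 12553 RefSeq-named genes detected on all arrays, no other gene had ratios to parental ES as low as those of Spink1 in both clones. Genes that fell below background in a clone were outside this count, and its limits were the values of Spink1 itself. On the mean of the clones Egr1 was lower, at -3.61 or 12.2-fold below parental ES.

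The limma p-values rest on an SD of 0.45 shared by all probes, set by the spread between the 2 clones over all probes. That spread is the sole replication in the design. A gene's own spread between the clones has no weight in its p-value. Parental ES and HoxA9-Ct ES have 1 array each and were assumed to vary like the clones. The call for Spink1 was lost under quantile normalization (adjusted p = 0.420 against parental ES and 0.352 against HoxA9-Ct ES) and when probes that were dim on all 4 arrays were kept out of the fit (0.262 and 0.308), with ratios of -3.38 to -3.63 under these settings.

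**Figure D3:**
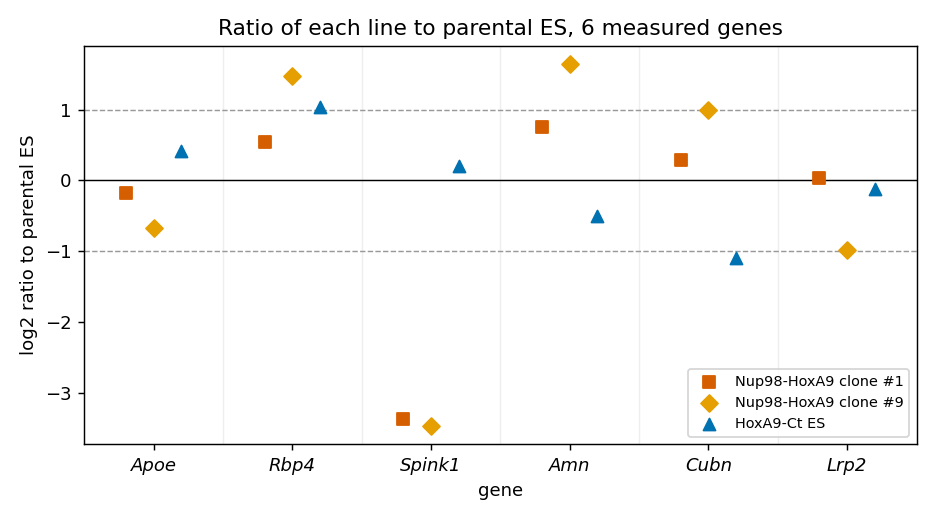
Log2 ratio of each transgenic line to parental ES (y axis) for the 6 genes detected in all lines (x axis). Points are single arrays, and dashed lines mark 2-fold. Spink1 lies at -3.38 and -3.47 in the clones, and Amn and Cubn lie above 0 in both clones and below 0 in HoxA9-Ct ES.

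Of the 10 genes, limma called 1 in the clones against parental ES (Spink1, lower), where 1.70% of all RefSeq-named genes were called in either direction. Against HoxA9-Ct ES it called 1 (Spink1, lower), with 1.53% of named genes called. Between HoxA9-Ct ES and parental ES it called 0 of the 10, with 0.341% of named genes called. At an unadjusted p under 0.05 the counts were 2 (Amn, Spink1), against 6.73% of named genes, 4 (Ttr, Amn, Cubn, Spink1), against 6.37%, and 1 (Ttr), against 2.95%, in these comparisons, and Ttr was below background in every line.

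The receptor pair Amn and Cubn showed the same order over the lines: lowest in HoxA9-Ct ES, then parental ES, clone #1 and clone #9. Amn encodes amnionless, the membrane anchor of the pair. Its signal was -1.04 for parental ES, -0.29 and 0.60 for clones #1 and #9, and -1.55 for HoxA9-Ct ES. Both clones lay above both other lines, with ratios to parental ES of 0.75 and 1.64, while HoxA9-Ct ES lay at -0.51. The mean of the clones was 1.20 ± 0.56 (SE; interval 0.11 to 2.29) above parental ES, or 2.29-fold, with an adjusted p of 0.612 by limma. Against HoxA9-Ct ES the difference was 1.70 (interval 0.61 to 2.79), 3.26-fold higher, with an adjusted p of 0.110. The clones themselves stood 0.89 apart, which is more than either step from HoxA9-Ct ES to parental ES or from there to clone #1.

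Cubn encodes cubilin, the ligand-binding partner. Its brighter probe gave -0.16 for parental ES, 0.12 and 0.83 for clones #1 and #9, and -1.26 for HoxA9-Ct ES. Again the clones did not overlap the other lines, with ratios to parental ES of 0.28 and 0.99, and HoxA9-Ct ES lay at -1.09, which is 2.13-fold lower with an adjusted p of 1.00. The step from parental ES to clone #1 was within the 0.71 that separated the clones, and the step from HoxA9-Ct ES to parental ES was larger. The mean of the clones differed from parental ES by 0.64 (interval -0.45 to 1.73, adjusted p = 1.00) and from HoxA9-Ct ES by 1.73 (interval 0.64 to 2.82), 3.31-fold higher with an adjusted p of 0.0999. The other Cubn probe gave -4.77, -4.88, -4.07 and -6.21 and was well above background only in clone #9, so it gives no order for the rest.

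Lrp2, or megalin, the large receptor that carries cubilin and its ligands into the cell, did not follow Amn and Cubn. Its signal was 2.26 for parental ES, 2.29 and 1.28 for clones #1 and #9, and 2.14 for HoxA9-Ct ES. The low line was clone #9, and the other lines lay within 0.15 of each other. The clones stood 1.01 apart, more than for 96.1% of detected genes, whose median difference between the clones was 0.19. The mean of the clones differed from parental ES by -0.48 (interval -1.57 to 0.61) and from HoxA9-Ct ES by -0.35 (interval -1.44 to 0.74), both with an adjusted p of 1.00 by limma. Without clone #9 these differences were 0.03 and 0.15, so that their direction rests on that clone. The only Lrp2 spot lies at 98.4% of the rows of the array, near its edge, and the part of position in its value was not tested.

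Among the secreted proteins that were detected, Rbp4, the serum carrier of retinol, was lowest in parental ES. It gave -0.64 for parental ES, -0.09 and 0.84 for clones #1 and #9, and 0.39 for HoxA9-Ct ES, so that HoxA9-Ct ES lay between the clones. The ratios to parental ES were 0.55, 1.48 and 1.03 for the transgenic lines in that order. The mean of the clones was 1.01 ± 0.56 (SE; interval -0.08 to 2.10) above parental ES, or 2.02-fold, with an adjusted p of 0.944 by limma, and differed from HoxA9-Ct ES by -0.02 (interval -1.11 to 1.07), with 0.45 for clone #9 alone and -0.48 for clone #1 alone. No neighbouring lines in this order were farther apart than the clones, which differed by 0.93.

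Apoe, the ligand of the lipoprotein receptors, was bright in every line, at 6.14 ± 0.03 (spot SD, n = 10) for parental ES, 5.96 ± 0.03 (n = 10) and 5.46 ± 0.02 (n = 10) for clones #1 and #9, and 6.56 ± 0.04 (n = 9) for HoxA9-Ct ES. The spots of the lines did not overlap, so these 4 arrays differed by more than their spot error. The clones were lower than parental ES by ratios of -0.18 and -0.68, and HoxA9-Ct ES was higher by 0.42. These differences did not pass the test built on the SD shared by all probes. The mean of the clones differed from parental ES by -0.43 (interval -1.52 to 0.66) and from HoxA9-Ct ES by -0.85 (interval -1.94 to 0.24), both with an adjusted p of 1.00 by limma.

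Ratios of single arrays show how the detected genes varied. More than 2-fold from parental ES were 1 of the 6 in clone #1 (Spink1), against 4.07% of all named genes detected on every array, and 3 in clone #9 (Spink1 lower, Amn and Rbp4 higher), against 7.50%. In HoxA9-Ct ES there were 2 (Cubn lower, Rbp4 higher), against 1.29%. Between clone #9 and clone #1 there was 1 (Lrp2), against 3.91%. The clones differed by 0.10 for Spink1, which is more than for 27.5% of detected genes, and by amounts above those of 84.9% to 96.1% of detected genes for the other 5. The median ratio of all 10 genes to parental ES was -0.0038 and 0.02 for clones #1 and #9, and 0.08 for HoxA9-Ct ES, and that of all named genes -0.08, -0.13 and 0.05. These medians include the 4 genes below background.

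The 5 genes with the profile most like that of Spink1, which had the widest range (3.67) among the 6 detected members of the set, were taken by the distance between log2 signals over the 4 lines, each gene centred on its own mean, among 25529 probes. They were the immediate-early factor gene Egr1 (distance 0.73), the membrane protease gene Tmprss13 (1.24), Prdm1 (1.25), which encodes the repressor BLIMP1, D630039A03Rik (1.46) and Ppp1r1a (1.47), a phosphatase inhibitor. Egr1 gave 1.56 for parental ES, -1.55 and -2.54 for clones #1 and #9, and 1.27 for HoxA9-Ct ES. All 5 were lower in both clones than in either other line. They were picked for this pattern, and 4 lines are too few to tell likeness from chance.

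**Figure D4:**
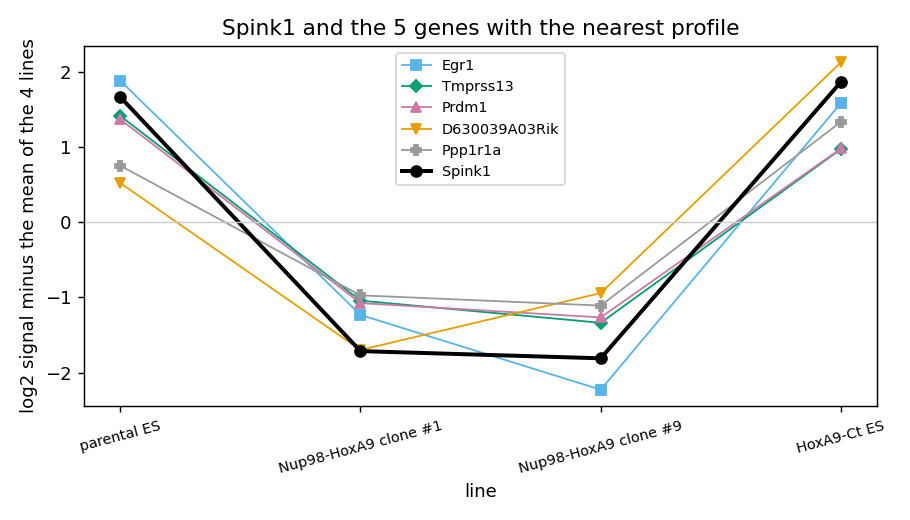
Log2 signal minus the mean of the 4 lines (y axis) by line (x axis) for Spink1 (thick line) and the 5 genes with the nearest profile. Each point is 1 array, and lines join the points of a gene only to guide the eye. All 6 genes lie below 0 in both Nup98-HoxA9 clones and above 0 in parental ES and HoxA9-Ct ES.

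The genes that set up or accompany visceral endoderm were read in the same way, and none of the calls in the lists that follow held under quantile normalization or without the probes dim on all 4 arrays, where limma called 0 probes. With the series matrix values limma made 1 call among the primitive and visceral endoderm markers against parental ES and 5 against HoxA9-Ct ES, 1 in the uptake list against HoxA9-Ct ES and 0 in the other lists and comparisons. With outlier spots kept, the endoderm markers had 2 and 6 calls, the call for Clu and that for Stra6 were lost, and the other secreted proteins had 1 call and the anterior markers 0 against parental ES. Of 12 primitive and visceral endoderm markers, limma called 4 higher in the clones than in parental ES and 0 lower. Of all named genes 1.70% were called in that comparison, in either direction. The share was 1.53% for the clones against HoxA9-Ct ES and 0.341% between HoxA9-Ct ES and parental ES. The counts of every list below stand beside these shares. Gata6, a factor that starts primitive endoderm, gave -2.00 for parental ES, 0.24 and 0.53 for clones #1 and #9, and -3.38 for HoxA9-Ct ES, and rose 5.21-fold (log2 ratio 2.38, adjusted p = 0.00275). Sox17 rose 4.04-fold (2.01, adjusted p = 0.0257), Hnf4a 3.79-fold (1.92, adjusted p = 0.0420) and Pdgfra, whose parental signal was too dim to call, at least 6.48-fold (adjusted p = 0.000287). The ratio of Hnf4a to parental ES was 0.99 in clone #1 and 2.85 in clone #9, so that its mean rests more on clone #9.

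Against HoxA9-Ct ES, 7 of the 12 were higher in the clones and 0 lower. Gata6 was 13.6-fold (log2 ratio 3.77) and Gata4 8.23-fold (3.04) higher, with Hnf4a at 4.04-fold (2.01). Sox17, Foxa2, Pdgfra and Dab2 were too dim to call in HoxA9-Ct ES and were at least 10.9-fold, 6.38-fold, 7.39-fold and 10.6-fold higher in the clones. At an unadjusted p under 0.05 by limma, 8 of the list passed in the clones against HoxA9-Ct ES, where 6.37% of named genes did. The clones against parental ES had 9 (6.73% of named genes). HoxA9-Ct ES against parental ES had 4 (2.95%), namely Gata6, Sox17, Foxa2 and Dab2, each lower in HoxA9-Ct ES. HoxA9-Ct ES was at least 2.70-fold lower than parental ES for Sox17 (adjusted p = 0.00227), the 1 call of the list in that comparison, which sets 1 array against 1. The other Sox17 probe did not pass there (log2 ratio -1.20, adjusted p = 1.00), and the call was also lost under normexp, the floor, the series matrix and the mean over both probes. Against the clones that probe was called as the first was, at 2.19 above parental ES and at least 7.67-fold above HoxA9-Ct ES. The other Foxa2 probe was above background only in clone #9 and gave -4.56 for parental ES, -5.33 and -3.77 for clones #1 and #9, and -6.45 for HoxA9-Ct ES, so that it gives no fold. The median ratio of the list to parental ES was 1.22 and 1.80 for clones #1 and #9, and -0.55 for HoxA9-Ct ES, with the named-gene medians as above. Beside the order of Amn and Cubn, the summed processed signal of the list was 532 for parental ES, 1255 and 1921 for clones #1 and #9, and 403 for HoxA9-Ct ES. The part of endoderm-like cells in the values of Amn and Cubn was not tested.

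Of 22 genes for uptake partners and lipoprotein receptors, 19 were detected in all lines and 22 in clone #9. Limma called 1 higher than in parental ES: Stra6, the receptor for the Rbp4-retinol complex. It was well above background only in clone #9 (-4.94, -4.16, -1.93 and -4.27 over the lines in the order used above). Its mean over the clones, with clone #1 entered at its undetected signal, was 2.35-fold above the parental detection limit. By limma the adjusted p was 0.0475, so that 1 clone carries this call, which was also lost with array medians. Against HoxA9-Ct ES, 2 were higher, the clathrin adaptor gene Dab2 and Vldlr, a receptor for Apoe-rich lipoproteins. Dab2 gave -2.62 for parental ES, -1.11 and -0.56 for clones #1 and #9, and -4.67 for HoxA9-Ct ES, the same order as Amn and Cubn, with a ratio of 1.78 to parental ES (adjusted p = 0.0808). Vldlr gave -3.06, -1.46, -0.94 and -3.75 in the same order, 5.82-fold higher than in HoxA9-Ct ES (log2 ratio 2.54, adjusted p = 0.000971), while its other probe was not above background in any line. Lrpap1, the chaperone of megalin, gave 2.94, 3.33, 3.73 and 2.99 and did not pass the test. No gene of the list was called between HoxA9-Ct ES and parental ES by limma, with 1 at an unadjusted p under 0.05. The median ratios of the list to parental ES were 0.43, 0.52 and 0.15 in the transgenic lines.

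**Figure D5:**
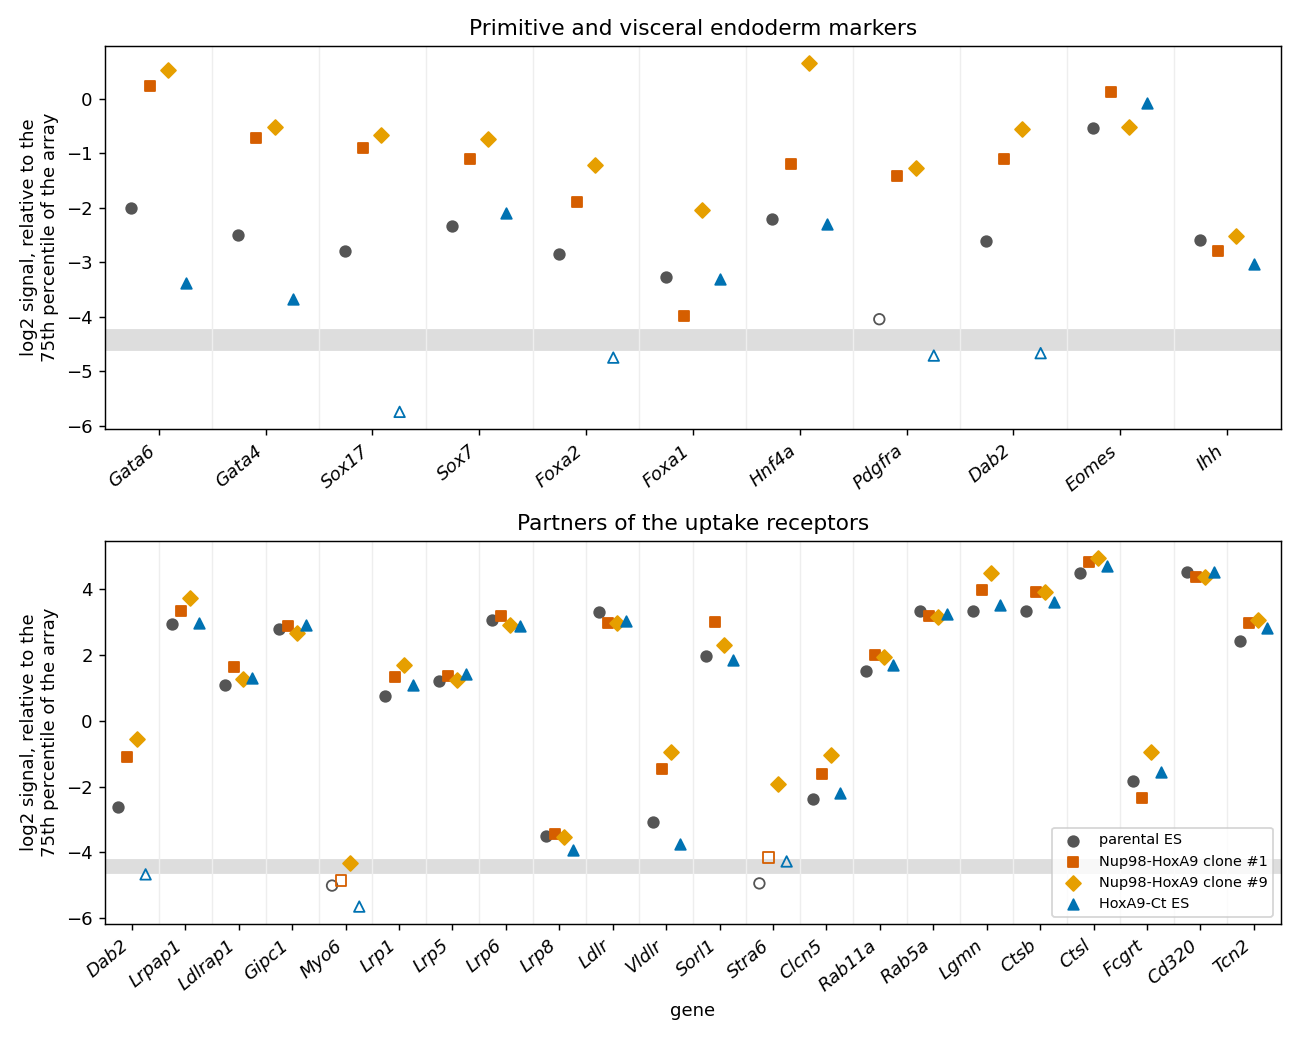
Log2 signal relative to the 75th percentile of the array (y axes) for the 11 primitive and visceral endoderm markers detected in at least 1 line (top) and the 22 genes for partners of the uptake receptors (bottom), with 1 marker for each line, filled where well above background. The grey band spans the lowest signals called well above background. Gata6, Gata4, Sox17 and Dab2 lie in the order HoxA9-Ct ES, parental ES, clone #1 and clone #9, and most uptake partners differ little between lines. Dab2 belongs to both lists.

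Other apolipoproteins and lipid assembly genes had probes for 19 of 21 names. Limma called 0 of them in the clones against parental ES (2 at an unadjusted p under 0.05), 0 between HoxA9-Ct ES and parental ES (1 unadjusted) and 1 higher in the clones than in HoxA9-Ct ES. That gene was Clu, the secreted chaperone clusterin, at 1.86 for parental ES, 2.97 and 3.92 for clones #1 and #9, and 1.51 for HoxA9-Ct ES, 3.83-fold higher (log2 ratio 1.94, adjusted p = 0.0394). The list's median ratios to parental ES were 0.06, 0.22 and 0.09 in the transgenic lines. As with Apoa1 and Apob, 5 of the 19 were not detected in any line, among them Apoa4, Apoc3 and Apoh. Apoc1, whose gene lies beside Apoe, was detected throughout at 4.54, 4.81, 4.90 and 5.02 and did not pass the test in any comparison.

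Of 22 other secreted proteins and marker proteins of visceral endoderm and yolk sac, 10 were not detected in any line, among them Alb, Fga, Fgb and Vtn. Limma called 2 higher in the clones than in parental ES and the same 2 against HoxA9-Ct ES, with 0 called between HoxA9-Ct ES and parental ES (0 at an unadjusted p under 0.05). Igf2, a fetal growth factor, gave -6.23 for parental ES, -3.42 and -2.01 for clones #1 and #9, and -6.13 for HoxA9-Ct ES and was at least 2.95-fold and 2.86-fold higher (adjusted p = 1.39e-07 and 4.45e-07). Ambp, the precursor of a plasma protease inhibitor, was well above background only in clone #9 (-6.25, -5.99, -2.56 and -6.55), so that its calls (adjusted p = 0.0313 and 0.00576) rest on 1 clone. The list's median ratios to parental ES were -0.13, 0.11 and 0.07.

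Markers of other cell types were read beside these genes. All 9 pluripotent ES cell markers were well above background in every line, and limma called 0 of them in any comparison (0 at an unadjusted p under 0.05). Klf4 and Utf1 differed most between the clones and parental ES, by 0.42 and -0.39. Of 10 parietal endoderm markers 0 were called against parental ES (5 unadjusted) or between HoxA9-Ct ES and parental ES (0 unadjusted), and Col4a1 (2.14), Col4a2 (2.36) and Srgn (2.25) were higher in the clones than in HoxA9-Ct ES by these log2 ratios. The summed processed signal of the parietal list was 51984 for parental ES, 51161 and 68023 for clones #1 and #9, and 45625 for HoxA9-Ct ES.

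Of 6 anterior visceral endoderm markers, Dkk1 was higher in the clones (log2 ratio 1.97 to parental ES) and Otx2 lower (-1.94), and both were called against HoxA9-Ct ES as well (at least 4.65-fold higher and a log2 ratio of -2.60), with 0 of 6 called between HoxA9-Ct ES and parental ES (0 unadjusted). Of 8 trophectoderm markers, Cdx2 (at least 1.82-fold), Elf5 (1.43-fold) and Krt8 (5.35-fold) were higher in the clones than in parental ES (7 unadjusted). Elf5 was above background only in clone #1. Against HoxA9-Ct ES, Elf5 (1.39-fold) and Hand1 (1.62-fold, above background only in clone #9) were higher (4 unadjusted). The Elf5 and Hand1 folds include the undetected signal of the other clone, so they are not lower bounds. Between HoxA9-Ct ES and parental ES 0 of the 8 were called (2 unadjusted). The summed processed signal of the trophectoderm list, before normalization, was 3154, 5140, 10128 and 2683 in the order used above. These sums lay in the order of Amn and Cubn. The list's median ratios to parental ES were 1.28, 2.26 and 0.34 in the transgenic lines. By the median, HoxA9-Ct ES thus lay above parental ES, unlike for Amn and Cubn. The part of this list in the values of Amn and Cubn was not tested. Of 7 fibroblast markers, limma called 0 in any comparison (1 to 3 at an unadjusted p under 0.05), and Postn, Lum and Dcn were not detected in any line. The 2 detected in all lines were Col1a1 and Thy1, with mean ratios of the clones to parental ES of 0.88 and 0.73. Col1a1 lay at -0.18 in clone #1 and 1.93 in clone #9, and Thy1 at 0.30 and 1.17.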

How the data were processed

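One-colour arrays of 4 lines, on 1 slide and from 1 scan, were used. The authors extracted the images with Agilent Feature Extraction 10.10.1.1 (submitters' processing notes), and the deposited scanner files give the processed signal intensity of each spot, already background-subtracted and spatially detrended. The deposited series matrix holds the same intensities times 1 constant per array (3.19 to 3.63), whose origin is not stated. The array annotation is on mm9. RefSeq tables on GRCm38.p6 gave symbols (26762 of 55681 probes named) and promoter windows, and no coordinates were converted.

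Controls were dropped. Processed signals were expressed in log2 against the array's 75th percentile over 59305 spots (229, 222, 253 and 209 in parental ES, clone #1, clone #9 and HoxA9-Ct ES), and averaged per probe without 143 to 201 outlier spots per array. Per array 49.9% to 53.0% of spots were well above background and 0 were saturated. The number of arrays limits the precision. A gene with several probes was read at its brightest probe on average. "At least" folds take as reference, on each array, the larger of the detection limit (the lowest signal well above background) and the signal of the dim probe. The folds of Stra6, Elf5 and Hand1 use this reference too. There the mean of the clones includes a clone that was not well above background, and "at least" is left out.

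A model with 3 groups, which leaves 1 residual degree of freedom, was fitted in limma 3.58.1 (R 4.3.3, lmFit, then eBayes) after a test on simulated data, and p-values were adjusted over 55562 probes by Benjamini-Hochberg with a threshold of 0.05. Prior degrees of freedom were infinite, so all probes share a standard error. The authors call the clones independent, the labels give only their clone numbers, and p-values measure only the spread between the clones over all probes. Tables and figures were made in Python 3.11.15 with pandas 2.3.3 and matplotlib 3.10.9.

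Alternatives were normexp background correction (offset 50, on median spot signals, since no mean signal column was present), quantile normalization, scaling to array medians, a floor at each array's detection limit, a fit without probes that were dim on all 4 arrays, the series matrix, outlier spots kept, averaging all probes of a gene, eBayes with trend and robust on, fold thresholds of 1.5 and 3, and leaving out each clone. The 10 genes, the other lists (other apolipoproteins, other secreted proteins, uptake partners, and markers of primitive and visceral, parietal and anterior visceral endoderm, pluripotent ES cells, trophectoderm and fibroblasts) and the tests were chosen with earlier results of these data known. From these lists, genes were named when called by limma, or failing that the 2 with the largest ratio among genes well above background on all arrays, and other names were added after their values were seen. The values of 1 listed gene are not reported here.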

Additional observations from a re-analysis of the deposited data

Results flagged for a closer look

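For 3 genes both Nup98-HoxA9 clones lay on one side of parental ES and HoxA9-Ct ES on the other. The mean of the clones minus HoxA9-Ct ES was -0.85 for Apoe, 1.70 for Amn and 1.73 for Cubn on the log2 scale. This opposite direction was not tested as such, and the direct limma comparison of the clones with HoxA9-Ct ES did not pass the threshold for any of the 3 (adjusted p = 1.00, 0.110 and 0.0999).

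Spink1 differed between the clones and HoxA9-Ct ES by -3.63 in the same limma comparison (adjusted p = 5.04e-08), with both clones lower than HoxA9-Ct ES. With 1 slide, 1 scan and 1 clone of HoxA9-Ct ES, transgene and clone cannot be told apart here.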

How the results depend on the processing

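Of 186 values of the 6 detected genes under the alternatives, 179 kept their sign and 7 changed it. Rbp4 in the clones against HoxA9-Ct ES became 0.017 (normexp), 0.000603 (quantile), 0.028 (array median), 0.044 (series matrix) and 0.45 (without clone #1). Lrp2 became 0.03 against parental ES and 0.15 against HoxA9-Ct ES without clone #9. The cause was not tested for any change given here. Genes called against parental ES numbered 3 of 10 under normexp and 3 with trend and robust on (Amn, Rbp4 and Spink1 in both), and 0 under quantile normalization and 0 without probes dim on all 4 arrays. Against HoxA9-Ct ES they numbered 3 under normexp and 3 with the floor (Amn, Cubn and Spink1 in both), 4 with trend and robust on (with Apoe), and 0 under quantile normalization and 0 with that filter. Under those last settings limma called 0 of all probes in each comparison, against 781, 756 and 225 by default, so that every call of the other gene lists is lost there too. The series matrix gave 140, 133 and 18. Between HoxA9-Ct ES and parental ES, 1951 probes had an unadjusted p under 0.05 by default, 4185 under quantile normalization and 992 with the filter.

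The median ratio of the 10 genes to parental ES moved in clone #1 to 0.027 (normexp), 0.076 (quantile), 0.017 (array median), -0.15 (floor), 0.030 (series matrix) and 0.102 (outlier spots kept), in clone #9 to -0.056, 0.085, -0.046, -0.341 and 0.112 under the first 5 of these and -0.093 with the mean over probes, and in HoxA9-Ct ES to 0.051, -0.0024, 0.0082 and 0.042 under the first 4. For the mean of the clones it was -0.0038 to 0.022 on leaving out each clone, values with no test since no residual degree of freedom is left. At 1.5-fold, 2 genes were apart from parental ES in clone #1, 6 in clone #9 and 4 between the clones. At 3-fold, 0 were apart in HoxA9-Ct ES and 0 between the clones. In HoxA9-Ct ES normexp left 0 and the array median 1, and between the clones normexp, quantile normalization and the series matrix left 0 each. No paired analysis was possible because the groups share fewer than 2 replicate numbers. Signal near background limits Afp, Ttr, Apoa1, Apob and the second Cubn probe in every setting.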
